A study of Mus musculus with 2 samples.

Results

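The data come from the control array of a series on BV-2 cells, a line of immortalized mouse microglia. The control cells were cultured with 5% CO2 at 37 °C and were not deprived of oxygen or glucose. The array is 1 of 2 samples in the series, and the other, from stressed cells, is not compared here. On it the modified RNA eluted from antibody-coated magnetic beads (IP) was labelled with Cy5, and the unmodified RNA recovered from the supernatant (Sup) with Cy3. Both fractions were hybridized together, so each spot gives an IP and a Sup signal. All spots for small RNAs and for genes were taken, 14900 of the 15742 spots on the array. Of these, 30 spots marked as outliers by the scanner software were left out, which left 14870 spots of 14446 probes. There was 1 array and no replicate, so the values have no error between samples and no test was made. The sources used here do not name the modification that the antibody binds.

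Separating RNA with an antibody against a chemical mark splits each transcript into a bound and an unbound pool, and the balance of the pools is read as the ratio of IP to Sup. Small RNAs such as microRNAs and fragments of transfer RNA, as well as messenger RNA, can carry methylated or otherwise altered bases. On 1 array, RNA held by the mark and RNA held by the beads cannot be told apart. The probes fall into 6 classes by their identifiers. The 14396 small-RNA probes carry 5 tokens, with 3486 MIRNA, 2945 MIRNASS, 3631 TRF, 3212 TRFSS and 1122 PST probes retained. The tokens are not explained in the sources used here and the identifiers are not paired with RNA names or sequences, so these classes are called by token. The other 50 probes are gene probes of up to 10 spots each. Their accessions gave symbols to 46 of them. Of the microglial marker genes listed for a check of the cells, only Apoe was on the array, 1 of 10 genes, and its signal was well above background in both channels.

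The scanner software balanced the dyes within the array, which sets the typical IP/Sup ratio near 1 whatever the amounts of RNA were. Over the 5353 RNA probes well above background in both channels, the median log2 IP/Sup was -0.04 after dye normalization and -0.76 before it. The values below therefore rank RNAs by their IP/Sup ratio on this array and do not give the absolute fraction of an RNA that was bound. An IP share is the IP signal as a percentage of the IP and Sup signals together, on that normalized scale. No spot was saturated, with 0 in IP and 0 in Sup. The dimmest probe counted as well above background had a signal of 181 in IP and 113 in Sup, in arbitrary units. The negative control spots had a median of 31.7 in IP and 28.8 in Sup.

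Fewer small RNAs were seen in the IP than in the Sup, while genes and PST probes went the other way. Among the gene probes, 82.0% were well above background in IP and 72.0% in Sup. For the PST class the shares were 30.0% in IP (95% exact binomial interval 27.4% to 32.8%) and 21.0% in Sup (18.7% to 23.5%). The 4 other classes had lower shares in IP than in Sup. MIRNA probes reached 50.6% in IP and 60.8% in Sup, and MIRNASS probes 29.0% in IP and 37.6% in Sup. TRF probes reached 44.6% in IP and 62.7% in Sup, and TRFSS probes 37.4% in IP and 53.2% in Sup. These intervals cover counting error over probes only. The detection limit given above was lower in Sup than in IP, and its part in these counts was not tested.

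The differences between the channels come from probes seen in 1 channel alone. In the PST class 132 probes were seen only in IP and 31 only in Sup. In the TRF class 63 probes were seen only in IP and 719 only in Sup, and in the TRFSS class 68 only in IP and 575 only in Sup. MIRNA probes numbered 91 in IP only and 446 in Sup only, and MIRNASS probes 107 in IP only and 359 in Sup only. Such probes have only a bound, taken against the higher of their own dim signal and the lowest signal well above background in that channel. By that bound, 355 of the 461 small-RNA probes seen only in IP (77%) were at least 2-fold higher in IP. Only 361 of the 2130 seen only in Sup (16.9%) were at least 2-fold higher in Sup. Most probes seen only in Sup thus lay too close to the limit of the IP channel to show a difference of that size.

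**Figure D1:**
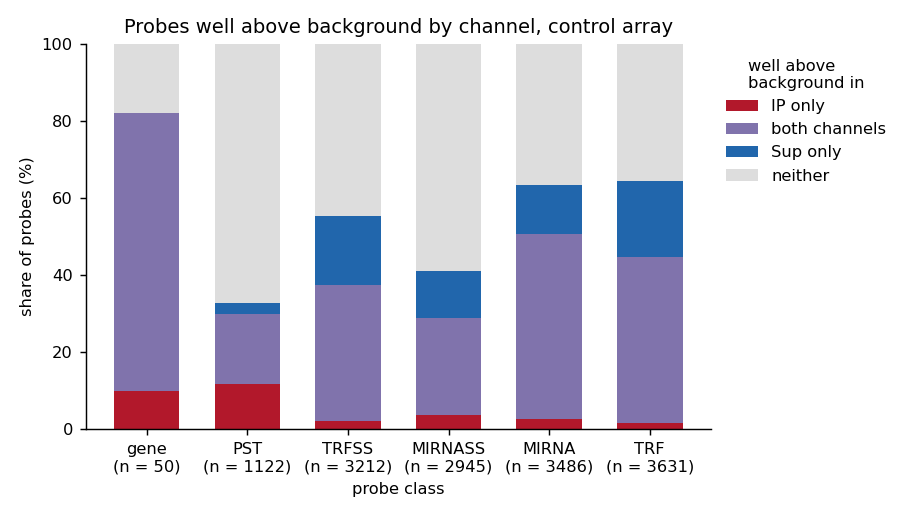
Share of probes (vertical axis, percent) in each probe class that were well above background in IP only, in both channels, in Sup only or in neither, on the control array. IP-only probes made up 11.8% of the PST class and 10.0% of the gene probes, against 1.74% of the TRF class, where 19.8% were seen in Sup only.

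Among RNAs measured in both channels, gene probes leaned most towards the IP, PST probes came next and TRF probes leaned towards the Sup. The median log2 IP/Sup was 2.01 for the 36 gene probes, a 4.04-fold higher IP signal, with quartiles at 1.06 and 3.09. It was 0.92 for the 205 PST probes (quartiles -0.37 and 1.86), or 1.90-fold higher in IP. A nearly equal median of 0.925 was found for 41 control probes marked as spike-ins. The PST lean was thus not larger than that of those controls, which ranged from -2.72 to 3.46. Centring the ratios on those controls subtracts their median, so the resulting PST median of -0.00137 restates this comparison. The 1134 TRFSS probes had a median of 0.18 (-0.66 and 0.79) and the 747 MIRNASS probes one of 0.02 (-0.69 and 0.89). The 1673 MIRNA probes stood at -0.08 (-0.80 and 0.66) and the 1558 TRF probes at -0.23 (-0.98 and 0.41). In IP shares, the medians were 80.1% for genes, 65.5% for PST, 53.1% for TRFSS, 50.4% for MIRNASS, 48.6% for MIRNA and 46.0% for TRF probes. The spread within each class was wider than the gaps between neighbouring classes: the interquartile range was 1.39 to 1.59 in the 4 larger small-RNA classes, 2.03 for genes and 2.23 for PST probes.

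**Figure D2:**
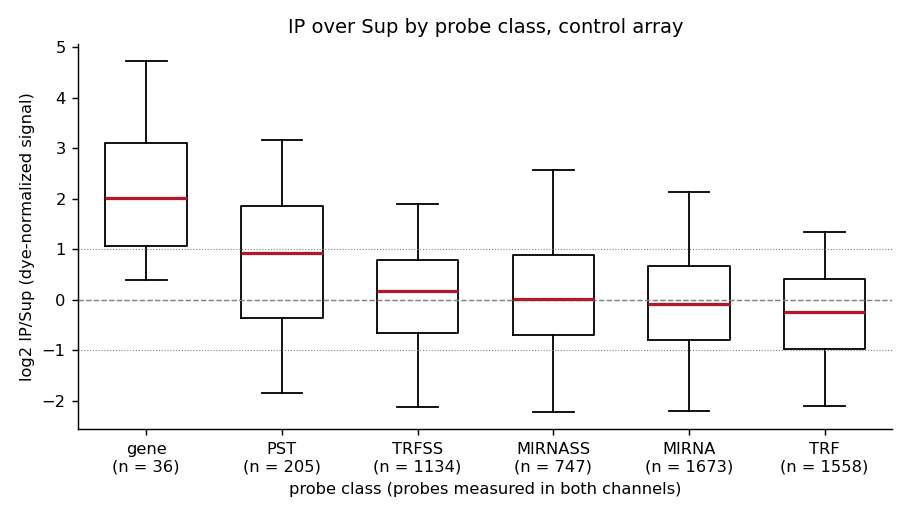
Box plots of log2 IP/Sup (vertical axis) for probes measured in both channels, by class, with the median in red, the quartiles as the box and the 5th and 95th percentiles as whiskers; dotted lines mark 2-fold. The gene box lies above 1 throughout, with its lower quartile at 1.06, while the boxes of the other classes span 0, with a median of 0.92 for PST and medians between -0.23 and 0.18 for the rest.

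Over all 5353 probes, 930 had at least 2-fold more IP than Sup signal (17.4%) and 1096 at least 2-fold more Sup than IP signal (20.5%). At 3-fold the counts were 476 higher in IP (8.89%) and 611 higher in Sup (11.4%), and at 4-fold 310 (5.79%) in IP and 325 (6.07%) in Sup. By class, at least 2-fold more IP was found for 28 of the 36 gene probes (77.8%) and 101 of the 205 PST probes (49.3%, exact binomial interval 42.2% to 56.3%). It was found for 167 MIRNASS (22.4%), 207 TRFSS (18.3%), 277 MIRNA (16.6%) and 150 TRF probes (9.63%, interval 8.21% to 11.2%). At least 2-fold more Sup was most common among TRF probes, with 385 (24.7%), and MIRNA probes, with 350 (20.9%). TRFSS probes followed with 199 (17.5%), then MIRNASS with 130 (17.4%), PST with 31 (15.1%) and genes with 1 (2.78%). At any size of difference, 143 of the 205 PST probes (69.8%) had more IP than Sup signal, against 375 of the 747 MIRNASS probes (50.2%). The share was 48.8% over all 5353 probes and 78.0% among the 41 spike-in controls. These shares depend on the scaling: the PST median was 0.21 before dye normalization and -0.00137 when centred on those controls.

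The far tails held members of most classes. At least 8-fold more IP was read for 110 probes (2.05%), of which 10 were gene probes, 36 MIRNA, 20 TRFSS, 17 MIRNASS, 14 TRF and 13 PST. At least 8-fold more Sup was read for 57 probes (1.06%), namely 19 MIRNA, 16 TRF, 15 MIRNASS and 7 TRFSS probes, with 0 from the PST class and 0 genes. At 16-fold, 31 probes were on the IP side (0.579%), among them 7 PST and 5 gene probes, and 14 on the Sup side (0.262%).

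The ratio also moved with signal level. Probes measured in both channels were put into 4 groups of equal size by the mean log2 signal of the channels, from dimmest (group 1) to brightest (group 4). The median log2 IP/Sup was 0.30 in group 1, -0.06 in group 2, -0.21 in group 3 and -0.28 in group 4. The interquartile range was 1.09, 1.43, 1.78 and 1.69 in the same order. When probes seen in at least 1 channel were grouped, the brightest group was higher than the dimmest by 0.54 instead of lower by 0.57, so the direction of this trend depends on the filter. In group 1, 19.1% of probes were at least 2-fold higher in IP and 5.16% in Sup, while in group 4 the shares were 16.7% in IP and 28.1% in Sup. Over the small-RNA probes the log2 IP and Sup signals correlated at Pearson r = 0.84 (5317 probes, which share 1 array and are not independent).

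Gene probes had the highest median at each signal level. They stood at 1.91 in group 1 (3 probes), 3.25 in group 2 (3 probes), 2.40 in group 3 (9 probes) and 1.79 in group 4 (21 probes). Probes of the other classes at the same levels had medians of 0.29, -0.07, -0.22 and -0.31. PST probes were at 0.83, 1.12 and 1.31 in groups 1 to 3 (57, 51 and 49 probes), but at -0.12 among the 48 brightest. In that last group 17 PST probes were at least 2-fold higher in IP and 17 in Sup. Summed over the class, the PST signal was 34.0% IP, and the brightest single probe in Sup gave 33.6% of the Sup sum. TRF probes were below the other classes in each group, with 0.17, -0.39, -0.47 and -0.46, against 0.35, 0.04, -0.08 and -0.20 for the rest. TRFSS probes lay above the rest by 0.02, 0.21, 0.38 and 0.53 from group 1 to group 4. MIRNA probes moved from 0.33 in the dimmest to -0.35 in the brightest group.

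**Figure D3:**
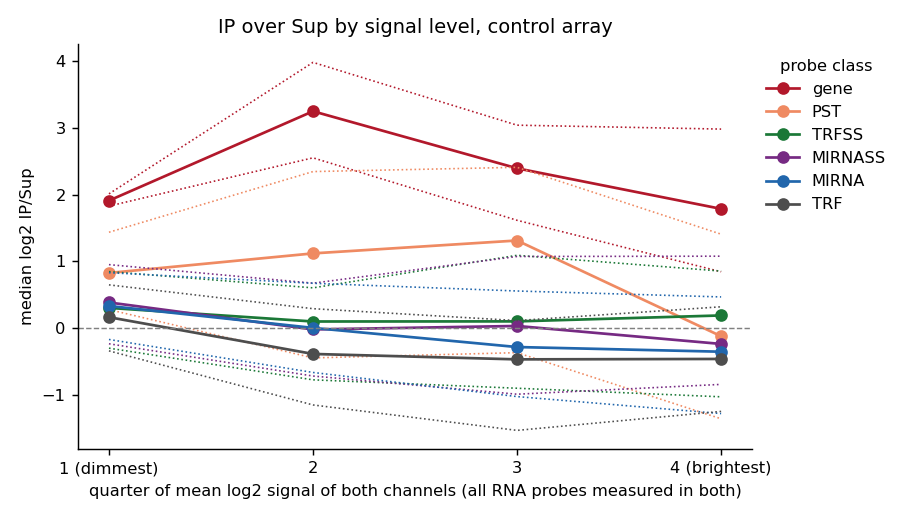
Median log2 IP/Sup (vertical axis) of each probe class in 4 groups of equal size by mean log2 signal (horizontal axis), with quartiles as dotted lines. Gene probes stay between 1.79 and 3.25, PST probes drop from 1.31 in group 3 to -0.12 in group 4, and TRF probes have the lowest median in every group.

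Nearly all measured genes had more IP than Sup signal after dye normalization. Among 36 gene probes with both signals well above background, 35 had a higher IP than Sup signal in every retained spot, and 1, Prdx2, had a lower IP signal in every spot. A higher mean IP signal was read for 48.8% of all 5353 RNA probes and 78.0% of the 41 spike-in controls. With ratios centred on those controls, 28 of the 36 gene probes were higher in IP. The SD of log2 IP/Sup over the repeat spots of a probe ran from 0.02 to 0.38 with a median of 0.09. These SDs hold only the scatter within the array. Signals below are geometric means over repeat spots in arbitrary units, and ratios are on the log2 scale. The specificity of the probes was not tested.

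The genes listed for endosomes and autophagy and for the cytoskeleton and centrosome ranged from the highest gene ratio to near balance. At least 2-fold more IP was read for 2 of the 2 measured endosome and autophagy genes. It was read for 2 of the 3 cytoskeleton and centrosome genes, against 77.8% of the 36 measured gene probes. Rab5a, which encodes a small GTPase of early endosomes, had a signal of 51484 in IP and 741 in Sup. Its log2 IP/Sup of 6.12 ± 0.14 (SD, n = 10 spots) is a 69.5-fold higher IP signal and the highest ratio of any RNA probe measured in both channels. With normexp background correction its ratio was 3.95, or 4.40 after loess. Here and below, normexp values hold no dye normalization unless loess is named. Cep41, which encodes a protein of centrosomes and cilia, had 3692 in IP and 141 in Sup, a log2 ratio of 4.71 ± 0.32 (n = 10 spots). Its Sup signal was well above background in 8 of the 10 spots, and with normexp its ratio was 1.30, or 1.62 after loess. Alkbh4, of the AlkB family of dioxygenases, had 5958 in IP and 912 in Sup, or 2.71 ± 0.11 (n = 10 spots). Tm9sf1, which encodes a transmembrane protein of the endomembrane system, had 16206 in IP and 4319 in Sup, or 1.91 ± 0.04 (n = 9 spots). Tm9sf1 was below 2-fold with normexp, at 0.92, and with ratios centred on the spike-in probes, at 0.98. After loess it stood at 1.37. Actb, the cytoplasmic beta-actin gene, was nearly balanced by comparison, with 23065 in IP and 17606 in Sup and a log2 ratio of 0.39 ± 0.05 (n = 10 spots). Atg3, an enzyme of autophagosome formation, had 227 in IP and a Sup signal not well above background, which gives an IP signal at least 2.01-fold higher.

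Stress response genes lay on both sides. Prdx2, which encodes a peroxiredoxin that removes hydrogen peroxide, was the exception among the genes, with 38178 in IP and 89982 in Sup. Its log2 ratio of -1.24 ± 0.03 (SD, n = 10 spots) corresponds to an IP signal 2.36-fold lower than the Sup signal. Carhsp1, an RNA-binding cold shock domain protein, had 13127 in IP and 1660 in Sup, or 2.98 ± 0.07 (n = 9 spots). Hspb7, a small heat shock protein gene, had 26831 in IP and 8457 in Sup, or 1.67 ± 0.07 (n = 10 spots). Over repeat spots the ratios ran from -1.29 to -1.18 for Prdx2, 1.57 to 1.81 for Hspb7 and 2.89 to 3.08 for Carhsp1. These ranges hold only the scatter within the array, and the scaling moved the ratios further. With normexp Prdx2 stood at -1.68, Hspb7 at 0.78 and Carhsp1 at 1.60.

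Genes of lipid transport and immunity differed in their ratios, and those of the brightest depended on the scaling. Apoe encodes apolipoprotein E, a lipid carrier made by microglia, and had 771712 in IP and 572534 in Sup, or 0.43 ± 0.04 (SD, n = 9 spots). Its IP share was 57.4%. The ratio of Apoe was 1.73 before dye normalization and 1.75 with normexp background correction, which also leaves out dye normalization. It was 2.55 with normexp and loess, and -0.49 with ratios centred on the spike-in probes, so its size and its direction depend on the scaling. Gsdmd, whose protein forms the membrane pores of pyroptotic cells, had 47520 in IP and 23134 in Sup, or 1.04 ± 0.03 (n = 10 spots), just past 2-fold. It was below 2-fold in each of those 4 other scalings, between 0.11 and 0.87. The MHC class I genes H2-M2 and H2-Q7 were close to 2-fold. H2-M2 had 114783 in IP and 54741 in Sup, or 1.07 ± 0.04 (n = 9 spots). H2-Q7 had 210497 in IP and 119210 in Sup, or 0.82 ± 0.05 (n = 8 spots), and 1.78 with normexp and loess. Cross-hybridization within this gene family was not tested. Il2, the T cell growth factor gene, had 366 in IP in 6 retained spots and a Sup signal not well above background, so its IP signal was at least 3.24-fold higher. Mzb1, which encodes a chaperone-like protein of B cells, had 623 in IP and 166 in Sup, or 1.91 ± 0.38 (n = 10 spots). With normexp the ratio of Mzb1 was 0.23.

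Metabolic genes spread widely. Cpt1a, the enzyme that commits fatty acids to import into mitochondria, had 22956 in IP and 1866 in Sup, or 3.62 ± 0.06 (SD, n = 10 spots). Pex11a, which takes part in peroxisome division, had 21538 in IP and 3466 in Sup, or 2.64 ± 0.08 (n = 10 spots). Gamt, the last enzyme of creatine synthesis, had 5294 in IP and 1533 in Sup, or 1.79 ± 0.09 (n = 10 spots). Duox1, a dual oxidase that makes hydrogen peroxide, had 3477 in IP and 661 in Sup, or 2.40 ± 0.21 (n = 10 spots). In contrast, Acaa2, a thiolase of mitochondrial fatty acid oxidation, had 38805 in IP and 21598 in Sup, or 0.85 ± 0.02 (n = 8 spots). Gpi1, the glycolytic phosphoglucose isomerase, had 427183 in IP and 347012 in Sup, the lowest positive ratio among the measured genes at 0.30 ± 0.03 (n = 10 spots). Of the 8 genes listed for energy metabolism, 2 were on the array, Gpi1 and Acaa2, and 0 of them reached 2-fold, against 77.8% of the 36 measured gene probes. This depends on the scaling for Gpi1, which stood at 1.22 before dye normalization, 1.23 with normexp and 1.99 with normexp and loess. With normexp Gamt and Duox1 were below 2-fold, at 0.66 and 0.81. Cpt1a and Pex11a stayed past 2-fold, at 2.22 and 1.52.

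The genes of transcription and signalling described here were on the IP side. E2f1, which drives genes of S phase entry, had 2699 in IP and 590 in Sup, or 2.19 ± 0.12 (SD, n = 10 spots). Bambi, a decoy receptor that damps TGF-beta signalling, had 32318 in IP and 5127 in Sup, or 2.66 ± 0.04 (n = 8 spots). These were the 2 of 7 listed genes on the array, and both passed 2-fold, as did 77.8% of the 36 measured gene probes. E2f1 was below 2-fold with normexp, at 0.63, and with normexp and loess, at 0.96. Taf1a, a subunit of the factor that loads RNA polymerase I, had 2269 in IP and 238 in Sup, or 3.25 ± 0.15 (n = 10 spots). Lhx1, a LIM homeodomain factor of development, had 2829 in IP and 1048 in Sup, or 1.43 ± 0.09 (n = 10 spots). Taf1a and Lhx1 were also below 2-fold with normexp, at 0.80 and 0.36. After loess they stood at 1.09 and 0.70. Bambi stayed past 2-fold, at 1.63 with normexp and 2.13 after loess.

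Other genes with high ratios have varied roles. Trp53rka, which encodes a p53-related protein kinase, had 4809 in IP and 165 in Sup, a log2 ratio of 4.87 ± 0.23 (SD, n = 10 spots). With normexp its ratio was 1.56, and adding loess gave 1.90. Uhrf1bp1l had 151457 in IP and 7163 in Sup, or 4.40 ± 0.04 (n = 9 spots). Rab5a, Trp53rka and Cep41, with higher ratios, had dimmer Sup signals of 741, 165 and 141. The part of a dim Sup signal in high ratios was not tested. Dnajc11, a J-domain protein of mitochondria, had 12271 in IP and 672 in Sup, or 4.19 ± 0.09 (n = 10 spots). Nup50, a nuclear pore protein, had 78400 in IP and 5298 in Sup, or 3.89 ± 0.06 (n = 10 spots). Cav2, which encodes caveolin-2, had 5608 in IP and 387 in Sup, or 3.86 ± 0.12 (n = 10 spots). With normexp Uhrf1bp1l stood at 3.45, Nup50 at 2.83, Dnajc11 at 2.13 and Cav2 at 1.48. Hyal3, of the hyaluronidase family, had 2190 in IP and 266 in Sup, or 3.04 ± 0.16 (n = 7 spots), and Lhfp had a ratio of 2.85 ± 0.09 (n = 10 spots). With normexp Hyal3 stood at 0.75, below 2-fold, and Lhfp at 1.31. The probe A_51_P237746, which has no symbol, had 573 in IP and 132 in Sup, or 2.11 ± 0.28. The remaining named genes past 2-fold were Olfr1307, an olfactory receptor gene, at 1.86 ± 0.14 (n = 9 spots), Anxa8, an annexin, at 1.75 ± 0.34 (n = 10 spots) and the predicted gene Gm9789 at 1.62 ± 0.11 (n = 9 spots). Olfr166, another olfactory receptor gene, fell short of 2-fold at 0.86 ± 0.03 (n = 9 spots). With normexp A_51_P237746, Olfr1307 and Gm9789 were also below 2-fold, at 0.23, 0.32 and 0.41.

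Of the 14 gene probes not measured in both channels, 5 were seen in IP only, 0 in Sup only and 9 in neither. Besides Atg3 and Il2, the IP-only genes were Chgb, a secretory granule protein, with an IP signal of 709 and a bound of at least 6.27-fold, Mbp at 474 and at least 4.19-fold, and Spats1 at 229 and at least 2.02-fold. Mbp, which encodes myelin basic protein, was the only oligodendrocyte marker on the array, 1 of 4 listed. No listed marker of astrocytes, neurons, endothelium or fibroblasts was on it, so other cell types could not be checked with these lists.

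Dye normalization changed the order of the brightest genes. For most probes it added a nearly constant amount, with a median of 0.75 over all RNA probes measured in both channels. For the 50 brightest probes, a number chosen after the data were seen, the median shift was -0.82. Before dye normalization Apoe stood at 1.73 in place of 0.43 and Gpi1 at 1.22 in place of 0.30, and the ratio of H2-Q7 was also higher. Actb stood at -0.40, on the Sup side, and Prdx2 at -1.73. Before it, 33 of the 36 gene probes had more IP than Sup signal and 26 were at least 2-fold higher in IP, against 8.14% of all RNA probes. Rab5a was again the highest gene, at 5.32. At least 2-fold more IP was read for 16 gene probes with normexp, 23 with normexp and loess and 18 with centring on the spike-in probes. Over all RNA probes measured in both channels, the shares in these settings were 3.23%, 5.10% and 6.22%. With ratios centred on the spike-in probes, 28 of the 36 gene probes were higher in IP. Those that then lay on the Sup side included, besides Prdx2, Olfr166 at -0.06, Acaa2 at -0.08, H2-Q7 at -0.10, Apoe at -0.49, Actb at -0.54 and Gpi1 at -0.63, so the direction of these genes, other than Prdx2, depends on the scaling. With normexp background correction and no dye normalization, Actb lay on the Sup side too, at -0.35.

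**Figure D4:**
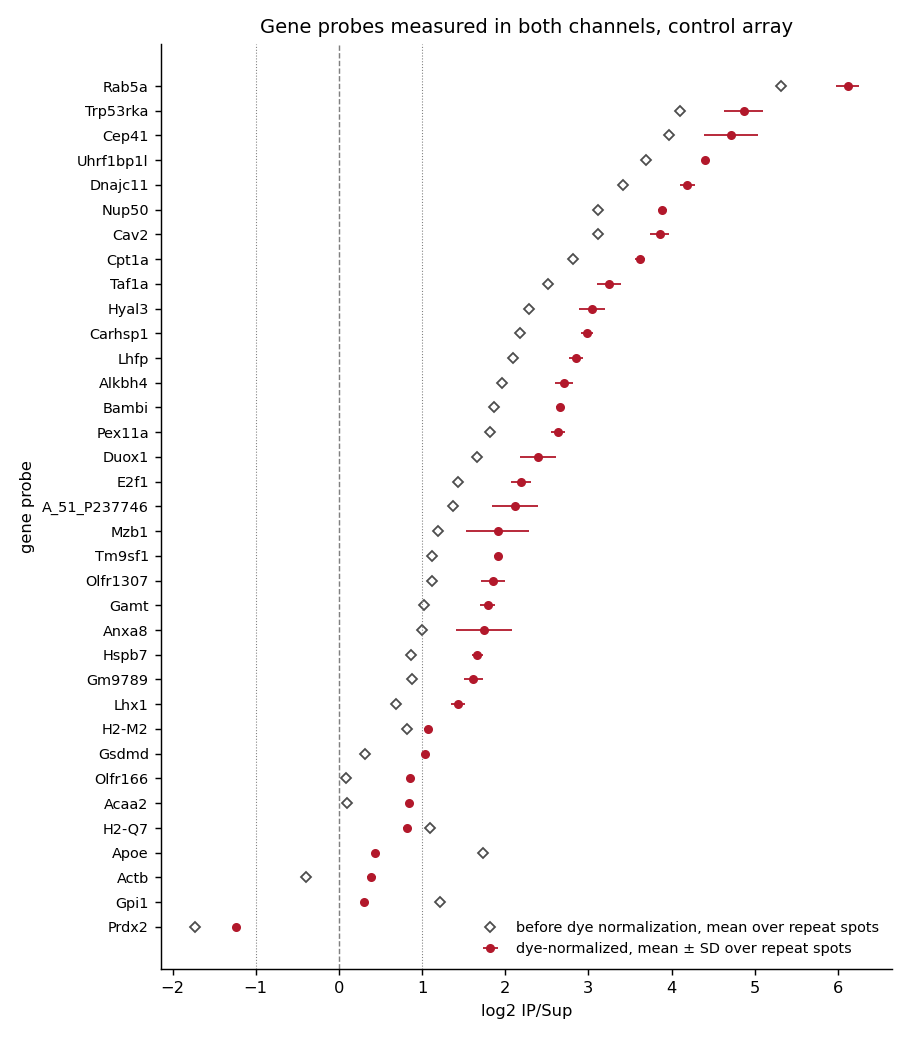
log2 IP/Sup (horizontal axis) of 35 of the 36 gene probes with both signals well above background, with red points for dye-normalized signals (mean ± SD over repeat spots) and open diamonds for the signals before dye normalization; dotted lines mark 2-fold. Prdx2 alone lies below 0 after normalization, at -1.24, and the bright genes Apoe, Gpi1 and H2-Q7 are the ones whose diamonds lie to the right of their points.

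The extreme small-RNA probes came in sets with neighbouring numbers. The highest ratios belonged to ASMM10SM20MIRNASS100009591TV2, with 30593 in IP and 850 in Sup (log2 5.17, scanner error 0.53), and ASMM10SM20MIRNASS100009592TV2, with 30359 in IP and 883 in Sup (log2 5.10, scanner error 0.53). The lowest belonged to ASMM10SM20MIRNASS100000660TV2, with 260 in IP and 8259 in Sup (log2 -4.99, scanner error 0.52), and ASMM10SM20MIRNASS100000661TV2, with 423 in IP and 9840 in Sup (log2 -4.54, scanner error 0.48). Each of these probes has 1 spot, so the error is the scanner's own estimate.

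The same held across the MIRNA, MIRNASS, TRF and TRFSS probes. The PST class had too few such pairs to be described, with only 4 sets of consecutive numbers that held more than 1 measured probe. Among the 2945 pairs of measured probes of 1 class whose numbers differ by 1, the log2 IP/Sup values correlated at Pearson r = 0.80, and their median absolute difference was 0.30. For numbers 10 apart, r was 0.16 over 1234 pairs and the median difference was 1.00, and for numbers 100 apart r was 0.09 over 1226 pairs. The likeness ended sooner in the MIRNASS class, where r was 0.87 at a gap of 1, 0.90 at 2 and -0.25 at 3 (407, 214 and 41 pairs). It reached further in the TRF class, with r of 0.83 at 1 (858 pairs), 0.71 at 2 and 0.58 at 5, and in the TRFSS class, with 0.72 at 1 (586 pairs) and 0.53 at 5. In the MIRNA class r was 0.77 at 1 (1091 pairs), 0.64 at 3 and -0.09 at 5. The mean signal level correlated as well, at 0.86 for a gap of 1. Only 2 of the 2945 pairs with a gap of 1 lay within 2 rows and columns of each other on the array, and the median distance was 56 rows. These correlations describe probes of 1 array that share labelling and normalization.

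**Figure D5:**
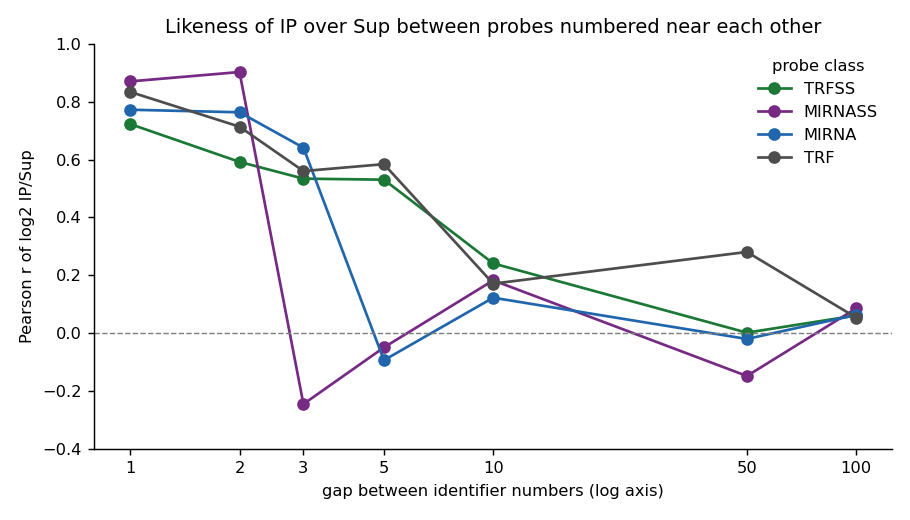
Pearson correlation of log2 IP/Sup (vertical axis) between measured probes of 1 class against the gap between their identifier numbers (horizontal axis, log scale). At a gap of 1 the correlation lies between 0.72 and 0.87, and at a gap of 100 between 0.05 and 0.09.

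Probes with consecutive numbers were therefore also averaged, a grouping chosen after the data were seen. The small-RNA probes formed 5261 runs on the array, with a median of 4 probes a run in the MIRNA class, 3 in the MIRNASS, TRF and TRFSS classes and 1 in the PST class. Of the 2247 runs with a measured probe, 1565 had more than 1, and in 1153 of these (73.7%) all measured probes lay on the same side of an equal IP and Sup signal. With 1 mean per run, the class medians were 0.88 for PST, 0.12 for TRFSS, 0.08 for MIRNASS, -0.09 for MIRNA and -0.18 for TRF. The share of runs at least 2-fold higher in IP was 48.8% for PST and 8.66% for TRF, and the order of the classes was the same as over probes. The binomial intervals above treat probes as independent, which these correlated values are not. Whether consecutive probes report the same RNA was not tested.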

How the data were processed

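The deposited scanner file of the control array gives fluorescence intensity per spot and channel. Per the file headers, Agilent Feature Extraction 11.0.1.1 background-subtracted, detrended and dye-normalized it with a linear and a lowess step, and the file also holds the intensities before dye normalization and log10 ratios of Cy5 (IP) over Cy3 (Sup). The authors' deposited table covers 5702 small-RNA probes on a log2 scale, with values that equal the log2 processed signal minus 14.2 in IP and 11.9 in Sup (column medians -4.74 and -2.48). The origin of these constants is unknown, so the table was centred. In the deposited file, flags (other columns) mark spots well above background.

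Spots marked as outliers and control spots were left out, log2 signals of repeat spots were averaged, and a probe counted as measured in a channel where 50% or more of its spots passed that flag. The log2 ratio is IP over Sup processed signal, with no further normalization. Symbols came from RefSeq (GRCm38.p6). No p-value was computed: 1 array limits the precision. Medians carry 95% order-statistic intervals in the tables. Dyes were not swapped, so dye bias and enrichment cannot be told apart. Named genes are all gene probes with a symbol seen in at least 1 channel, in full where at least 2-fold, and at most the 2 highest and 2 lowest small-RNA probes. Of the genes this rule names, 1 is not reported here, though the counts include it. Members and lists were chosen with earlier results of these data known. Settings were compared with limma 3.58.1 (normexp, offset 50, median signals) in R 4.3.3, with Python 3.11.15 elsewhere. The normexp setting holds no dye normalization unless loess is named. The computation was tested on simulated data.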

Additional observations from a re-analysis of the deposited data

Results flagged for a closer look

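Some probes outside the RNAs described above also gave signal. The identifiers mark 102 probes as spike-ins, of which 54 were well above background in IP and 47 in Sup, while the negative control was not well above background in either channel. Both signals were measured for 41 of them, with a median log2 IP/Sup of 0.925 and a range from -2.72 to 3.46, and 32 were higher in IP. Of the positive control probes, 10 were measured in both channels, with a median log2 IP/Sup of 1.12. These control probes were in neither the class medians nor the counts of RNAs. The sources used here do not say what was spiked in, or when.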

How the results depend on the processing

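No paired analysis was possible because there is 1 array with no replicate. Gene probes had the highest class median, PST probes the next and TRF probes the lowest in the main setting and in all alternatives that hold these classes, and 0 of the named RNAs past 2-fold changed side, but many lost that size. The count of gene probes at least 2-fold higher in IP was 28, against 16 with normexp, 18 with spike-in centring, 23 with normexp and loess and 26 before dye normalization. Over all RNA probes measured in both channels the shares were, in the same order, 17.4%, 3.23%, 6.22%, 5.10% and 8.14%. Gsdmd ranged from 0.11 to 0.87 over these 4 alternatives and Anxa8 was 0.18 with normexp. Sizes did change, and the cause was not tested. Class medians follow in the order gene, PST, TRFSS, MIRNASS, MIRNA and TRF. Before dye normalization, chosen after the data were seen, they were 1.41, 0.21, -0.56, -0.71, -0.80 and -0.97, with 436 probes at least 2-fold higher in IP and 2210 in Sup. Centred on the spike-in probes they were 1.09, -0.00137, -0.74, -0.90, -1.01 and -1.16, with 333 and 2602. With normexp and no dye normalization they were 0.82, 0.063, -0.11, -0.16, -0.23 and -0.27, with 173 and 765, and the brightest group lay 0.71 below the dimmest (-0.71). With normexp and loess they were 1.33, 0.22, 0.051, 0.0095, -0.021 and -0.053, with 273 and 380, and the difference of the groups was -0.34. The normexp settings add an offset of 50 to the signals, and its part in these values was not tested. With probes seen in at least 1 channel they were 2.19, 1.51, -0.26, -0.24, -0.25 and -0.52, with 1383 and 2383 and a difference of 0.54. With no filter they were 1.88, 0.20, -0.034, 0.091, -0.20 and -0.41, with 2008 and 3205 and a difference of -0.31. The authors' table gave 0.28 for TRFSS. At 3-fold the counts were 476 and 611, and with 1 mean per run of consecutive numbers, gene probes included, 431 and 442 passed 2-fold. Over 4 regions of the array PST ranged from 0.42 to 1.33 and TRFSS from 0.044 to 0.33, and the lowest TRF median was -0.34. Kept outlier spots and median-centring moved no class median outside its interval. The limit of the IP channel hides ratios of dim RNAs on the Sup side.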
